A study of Mus musculus with 6 samples.

Results

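The type I interferon response genes described here were 36 genes chosen by name: the receptor chains Ifnar1 and Ifnar2 and 34 interferon-stimulated genes. They were chosen with earlier results of these data known. The platform annotation gave a probe to 34 of the 36, with 66 probes among the 45281 on the array, and 27 genes were tested among the 9157 genes tested in all. Total RNA of 6 samples was hybridised to Illumina bead arrays, each a sample of sorted Foxp3+ regulatory T cells (Treg), the CD4 T cells that restrain immune responses. The cLP Treg came from the lamina propria of the colon, the connective tissue under the gut epithelium (3 arrays), and the MLN Treg came from the mesenteric lymph node that drains the gut (3 arrays). All were sorted by TCR beta, CD4 and Foxp3 from C57BL/6 mice of the genotype labelled Foxp3gfp, in the steady state, and the RNA was amplified before labelling. The titles of the MLN samples read MSN, and the group follows their source label. No age is given, nor whether samples of a group are from separate animals, so the spread behind each p-value is that of these samples alone and may be technical.

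Type I interferons bind a receptor made of the IFNAR1 and IFNAR2 chains, whose kinases JAK1 and TYK2 activate signal transducers, among them STAT2. Together with IRF9, STAT2 takes part in a transcription factor complex that binds the interferon-stimulated response element in target promoters. The target genes encode sensors of foreign nucleic acid, enzymes and binding proteins that block viral replication, and feedback regulators such as USP18. T cells express many of these genes at a low tonic level without infection. The comparison addressed how Treg of the colonic mucosa differ from Treg of the gut-draining lymph node in this program.

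Values are log2 intensities after background correction and quantile normalisation, and a difference is cLP minus MLN with its standard error. Between 32.7% and 35.4% of probes were detected per array, and the number of arrays limits the precision. Signal over background separated the groups, with every cLP array at 3.18 or less and every MLN array at 3.33 or more. The part of this array difference in the lower values of cLP Treg was not tested. The cLP samples correlated with each other at r = 0.927 to 0.946 and the MLN samples at 0.969 to 0.977 (Pearson, across genes). All 8 Treg markers were detected on all arrays of both groups, but their levels differed: 4 were higher in cLP Treg (Ikzf2 by 2.23, Tnfrsf4 by 1.57, Tnfrsf18 by 1.25 and Ctla4 by 1.04), Il2ra was lower (-1.66), and Foxp3 (-0.01), Cd4 (-0.07) and Cd3e (-0.60) did not pass the threshold. Their summed normalised intensity was 92977 to 98529 in cLP samples and 58451 to 59800 in MLN samples. Some markers of other cells differed between the groups too. Of the CD8 and cytotoxic markers 3 of 6 were tested: Nkg7 (1.89) and Klrd1 (at least 2.52-fold, detected on no MLN array) were higher in cLP Treg, Cd8b1 was detected on all arrays without passing (-0.78), and Cd8a, Eomes and Gzmk were detected nowhere. Their sums were 3231 to 5755 in cLP samples and 4901 to 5895 in MLN samples. Of the mast and innate lymphoid markers 2 of 8 were tested and both were higher (Hdc by 3.29 and Kit by 2.16), with sums of 686 to 2246 in cLP samples and 69.2 to 317 in MLN samples, and the other 6 were detected nowhere. Of the plasma cell markers 2 of 5 were tested and both were higher (Xbp1 by 1.02 and Jchain at least 2.14-fold, detected on no MLN array), with sums of 5051 to 5153 in cLP samples and 2502 to 2532 in MLN samples, and Sdc1 and Tnfrsf17 were detected nowhere. Of the stromal and endothelial markers 5 of 12 were tested and 3 were higher in cLP Treg. These were Acta2 (at least 34.4-fold), Col3a1 (at least 6.05-fold) and Sparc (at least 1.75-fold). All 3 were detected on no MLN array and so had to differ to be tested, as did Klrd1 and Jchain above. Col1a2 (0.57) and Pecam1 (-0.11) did not pass. The summed normalised intensity of the 5 was 2227 to 3331 in cLP samples and 791 to 1018 in MLN samples. Of the B cell markers on the array 3 of 4 were tested. Cd79b (-2.72) was lower in cLP Treg, and Ms4a1 (-0.40) and Blk (0.28) did not pass. Their sums were 126 to 177 in cLP samples and 370 to 673 in MLN samples, and Pax5 was detected nowhere. Of the macrophage and dendritic markers 6 of 14 were tested, and Lyz1 (-1.85) and Lyz2 (-1.54) were lower. H2-Aa (0.29), H2-Ab1 (0.55), H2-Eb1 (0.38) and Csf1r (-0.20) did not pass. The sums were 887 to 1505 in cLP samples and 974 to 1344 in MLN samples. C1qa, C1qb, C1qc, Itgam and Itgax were detected nowhere. Of the epithelial markers 4 of 10 were tested and did not pass: Krt8 (1.64), Lgals4 (0.82), Cdh1 (0.63) and Epcam (-0.71). Krt8 had 6.68, 7.98 and 9.10 in cLP samples, against 6.30, 6.39 and 6.16 in MLN samples, without overlap. The epithelial sums were 867 to 2914 in cLP samples and 943 to 1202 in MLN samples. The granulocyte and erythroid lists, with 1 and 0 markers tested, gave no call. Of the markers of plasmacytoid dendritic cells, major producers of type I interferon, 5 of 6 were tested, 2 were higher and 2 lower in cLP Treg. Siglech (1.44) and Tcf4 (1.28) were higher, and Pacsin1 (-2.94) was lower. Ccr9 was at least 1.73-fold lower, but was detected on no cLP array and so had to differ to be tested. Bst2 (-0.63) did not pass. The sums were 8282 to 10533 in cLP samples and 4649 to 5842 in MLN samples, and Siglech was the brightest of the 5. Bst2 is both on that list and among the 36 genes. The part of such cells in the results below was not tested, and in sorted bulk samples fewer expressing cells and less RNA per cell cannot be told apart.

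Of the 27 genes tested, 13 were lower and 2 higher in cLP Treg at an adjusted p under 0.05 (limma with Benjamini-Hochberg adjustment over all genes), and 12 did not pass. Oas2, 1 of the 13, was detected on MLN arrays alone and so had to differ to be tested. The calls were 48.1% and 7.41% of the 27 genes, where 32.4% of all genes tested passed, 20.3% lower and 12.1% higher. Since the genes were chosen with earlier results of these data known, these shares are a description and no test. Lower genes included Usp18, which removes ISG15 from proteins and damps the receptor (11.1-fold lower), the antiviral RNA-binding protein gene Ifit2 (7.03-fold) and the interferon-inducible GTPase gene Ifi47 (4.50-fold). The receptor chain genes went opposite ways, with Ifnar1 higher and Ifnar2 lower. The transcription factor genes Irf7 and Irf9 and the ubiquitin-like modifier gene Isg15 did not pass the threshold.

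The difference was below 0 in 21 of the 27 genes, where 61.3% of all genes had a difference below 0. The median difference of the 27 genes was -0.80, against -0.21 for all 9157 genes. With the gene detected on no cLP array set at its bound, the median of the 27 was -0.68. Group values did not overlap in 15 of the 27 genes, 13 with all cLP values below the MLN values and 2 with all above, where 30.1% and 16.8% of all genes lay that way. The count of lower genes was 6, 7 and 8 without MLN sample 1, 2 and 3 and 8 without cLP sample 2, all of them among the 13. Of all 9157 genes, 1026, 1108, 1166 and 1555 were lower in these fits, against 1861 as reported. Where arrays were centred on the median of the tested genes, 8 of the 27 genes were lower, with 15.3% of all genes then called lower and 14.5% higher. With median scaling 13 were lower and 0 higher (26.9% and 9.63% of all genes), and in the deposited values 12 were lower and 0 higher (30.3% and 9.62% of all genes). Usp18, Ifit2, Ifi47, Ifih1 and Mx2 were called lower under each of the alternatives in which they were tested.

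**Figure D1:**
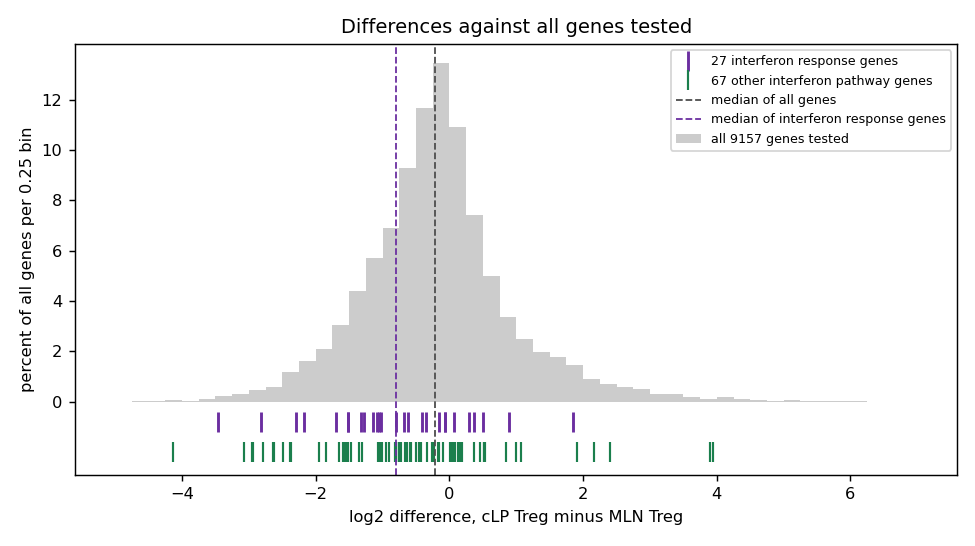
The grey bars give the percent of all 9157 genes tested in each bin of the log2 difference, cLP Treg minus MLN Treg, and the ticks below them mark the 27 interferon response genes and 67 other genes of the interferon pathway. The dashed lines mark the median of all genes (-0.21) and that of the interferon response genes (-0.80).

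The receptor chain genes are both needed for the response. The probe of Ifnar1 (ILMN_1222758) had log2 levels of 9.38, 8.49 and 8.86 in cLP samples 1, 2 and 3, against 7.90, 8.27 and 7.89 in MLN samples 1, 2 and 3. All cLP values lay above the MLN values, and the difference of 0.89 ± 0.28 (1.85-fold higher) passed the threshold narrowly (adjusted p = 0.0472). The probe used for Ifnar2 (ILMN_2971514) had 6.71, 6.31 and 5.55 in cLP samples, against 7.23, 7.49 and 7.25 in MLN samples. All cLP values lay below the MLN values, by 1.14 on average, or 2.20-fold (difference -1.14 ± 0.32, adjusted p = 0.0304). A second Ifnar2 probe (ILMN_2598703) differed by -1.62 ± 0.43 (adjusted p = 0.0246 over all probes). The Ifnar1 call ended without any of MLN samples 1, 2 and 3 (adjusted p = 0.147, 0.0751 and 0.135) and without cLP sample 1 or 3 (0.104 and 0.0667). Median scaling (0.55, adjusted p = 0.145) and the deposited values (0.44, 0.0958) ended it as well, and its alternatives spanned 0.0277 to 0.147. For Ifnar2, leaving out MLN samples 1, 2 and 3 in turn gave adjusted p = 0.0814, 0.101 and 0.0789, leaving out cLP sample 2 gave 0.0566, and centred arrays gave 0.0693 (all alternatives, 0.0157 to 0.101). Its difference was -0.60 without background correction and -0.64 in the deposited values.

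The transcription factors of the response did not pass the threshold. Irf7, which drives interferon production and amplifies the response, had 8.53, 7.53 and 8.46 in cLP samples, against 7.67, 7.92 and 7.42 in MLN samples. The groups overlapped through cLP sample 2 (difference 0.50 ± 0.32, adjusted p = 0.28). Irf9, a DNA-binding partner of STAT2, had 11.20, 10.73 and 10.74 in cLP samples, against 11.09, 10.94 and 10.83 in MLN samples. Its groups overlapped too (difference -0.06 ± 0.23, adjusted p = 0.868), and the sign turned with centred arrays (0.12) and when single samples were left out.

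**Figure D2:**
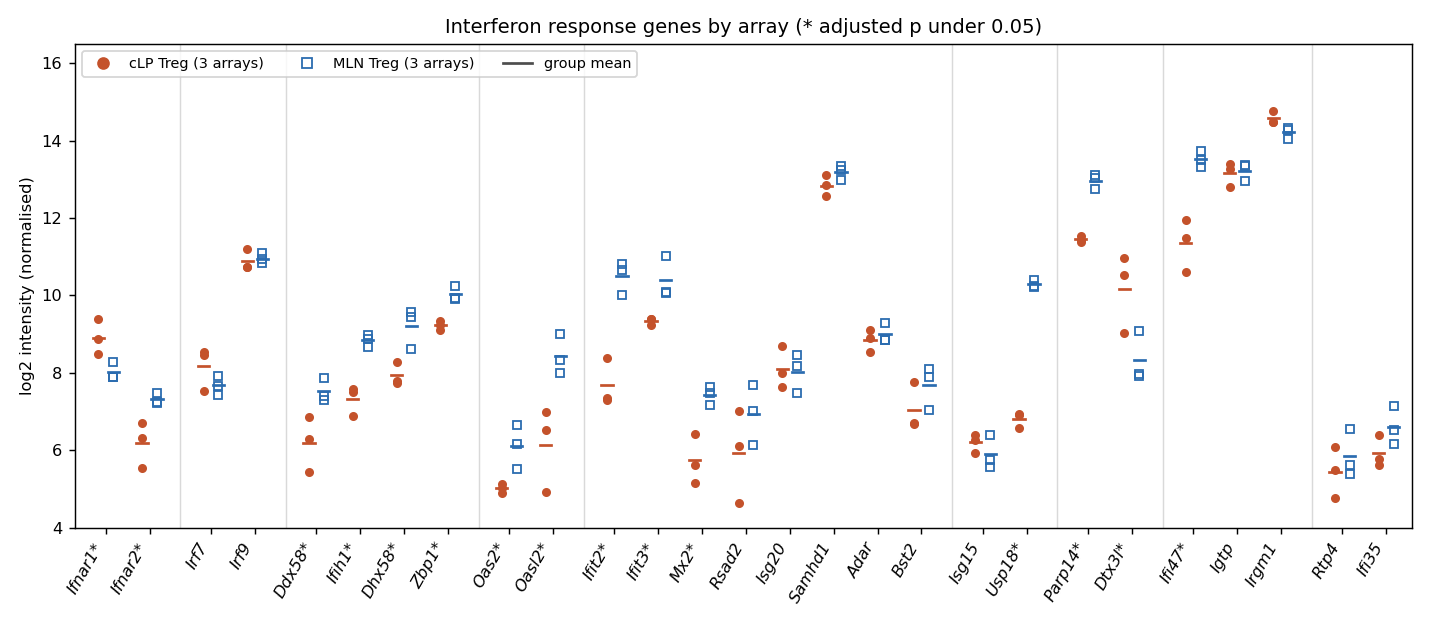
Each point is the normalised log2 intensity of a gene's probe on 1 array, with cLP Treg left (filled circles) and MLN Treg right (open squares) and short lines for the group means. Levels of different genes come from different probes and cannot be set against each other, and Usp18 shows the widest gap, with cLP values of 6.58 to 6.94 against MLN values of 10.21 to 10.40.

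All 4 genes for cytosolic nucleic acid sensors were lower in cLP Treg. Ifih1, which encodes MDA5, a sensor of long double-stranded RNA, had 7.5, 7.59 and 6.89 in cLP samples, against 8.67, 8.99 and 8.88 in MLN samples. Every cLP value lay well below the lowest MLN value (difference -1.52 ± 0.26, 2.86-fold lower, adjusted p = 0.00467). Ddx58, which encodes the RNA sensor RIG-I, had 5.44, 6.85 and 6.29 in cLP samples, against 7.29, 7.40 and 7.87 in MLN samples. It was detected on 2 cLP arrays, and the groups did not overlap (difference -1.32 ± 0.38, adjusted p = 0.0323). A second Ddx58 probe (ILMN_1251358) was highest in cLP samples 1 and 2, with overlapping groups and values of 6.91, 5.67 and 4.56 in cLP samples, against 4.66, 4.49 and 4.66 in MLN samples. It was detected on cLP samples 1 and 2 alone, was not kept and has no test. Dhx58, which encodes LGP2, a regulator of both sensors, had 7.73, 7.80 and 8.27 in cLP samples, against 9.45, 9.56 and 8.61 in MLN samples. MLN sample 3 stood nearest to the cLP values (difference -1.27 ± 0.32, adjusted p = 0.0195). Its other kept probes, ILMN_1222039 (-1.08 ± 0.38, adjusted p = 0.0682 over all probes) and ILMN_2646834 (-0.93 ± 0.31, 0.0575), were of the same sign and did not pass. Zbp1, which encodes a sensor of Z-form nucleic acid that can start cell death, had 9.34, 9.24 and 9.10 in cLP samples, against 10.25, 9.90 and 9.93 in MLN samples. Its difference of -0.80 ± 0.22 was the smallest among the 4 (1.74-fold lower, adjusted p = 0.0261).

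Calls of the sensor genes other than Ifih1 depended on single samples. Ddx58 lost its call when MLN samples 1, 2 and 3 were left out in turn (adjusted p = 0.0719, 0.0798 and 0.111) and when cLP sample 1 was (0.0562; all alternatives, 0.0163 to 0.111), and its difference was -0.72 without background correction and -0.76 in the deposited values. Dhx58 lost it without MLN sample 1 (0.0778), MLN sample 2 (0.074) and cLP sample 2 (0.0535; all alternatives, 0.00451 to 0.0778). Among single samples left out, Zbp1 kept it only without cLP sample 1, with 0.112, 0.0614 and 0.0625 when MLN samples 1, 2 and 3 were left out and 0.0559 and 0.0515 for cLP samples 2 and 3 (all alternatives, 0.00351 to 0.112). With centred arrays the adjusted p was 0.0558 for Ddx58 and 0.0734 for Zbp1.

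Of 5 genes of the oligoadenylate synthetase family, which answers double-stranded RNA, 2 were tested. Oasl2, the one detected in both groups, was lower, and had 7.0, 6.53 and 4.91 in cLP samples, against 8.99, 8.0 and 8.33 in MLN samples. It was detected on 2 cLP arrays, the cLP samples had an SD of 1.10, and the groups did not overlap (difference -2.30 ± 0.54, 4.92-fold lower, adjusted p = 0.0164). Oas2 had 5.12, 5.03 and 4.90 in cLP samples, against 6.65, 6.15 and 5.51 in MLN samples. It was detected on no cLP array and passed the filter through the MLN arrays alone, so it had to differ and its adjusted p is no support. The bound is at least 1.5-fold lower (fitted difference -1.09 ± 0.31, adjusted p = 0.0324; measured means 5.02 in cLP and 6.10 in MLN samples). Oasl2 lost its call without MLN sample 1 (adjusted p = 0.0645) and MLN sample 3 (0.0524; all alternatives, 0.00769 to 0.0645), and its difference was -1.41 without background correction. Among single samples left out, Oas2 kept its call only without MLN sample 3, with 0.11 and 0.096 when MLN samples 1 and 2 were left out and 0.0557, 0.0698 and 0.0605 for cLP samples 1, 2 and 3 (all alternatives, 0.0197 to 0.138). It also ended without background correction, with the other offset, in the deposited values and with centred arrays (differences -0.48, -0.65, -0.41 and -0.90). For Oas1a, Oas3 and Oasl1 no probe was kept.

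Among 10 antiviral effector genes 8 were tested, 3 were lower and 0 higher. Ifit2 had 8.39, 7.36 and 7.29 in cLP samples, against 10.01, 10.64 and 10.82 in MLN samples. The groups lay far apart (difference -2.81 ± 0.37, 7.03-fold lower, adjusted p = 0.00171), and the second Ifit2 probe gave -2.61 ± 0.38. Mx2, a gene of the Mx family of antiviral GTPases, had 6.42, 5.16 and 5.63 in cLP samples, against 7.48, 7.64 and 7.17 in MLN samples. It was detected on 2 cLP arrays, and the groups did not overlap (difference -1.70 ± 0.35, adjusted p = 0.00942; -0.87 without background correction and -0.91 in the deposited values, both past the threshold; all alternatives, 0.00345 to 0.0401). Ifit3, whose protein joins the other IFIT proteins, had 9.40, 9.24 and 9.38 in cLP samples, against 10.07, 11.02 and 10.10 in MLN samples. The cLP values were close together and all below the MLN values (difference -1.05 ± 0.30, adjusted p = 0.0314). Ifit3 has a near-identical neighbouring copy, so its probe may read both. Its call ended without any MLN sample (adjusted p = 0.0533, 0.0769 and 0.0523) and without cLP sample 1 or 2 (0.0577 and 0.0772; all alternatives, 0.00313 to 0.0772), and with centred arrays (0.0612).

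The other 5 effector genes had overlapping groups. Rsad2, which encodes viperin, had 6.11, 7.0 and 4.64 in cLP samples, against 7.68, 7.02 and 6.12 in MLN samples, a wide spread in both groups (difference -1.02 ± 0.63, adjusted p = 0.259). Bst2, which encodes tetherin, a protein that holds budding virus at the cell surface, differed by -0.63 ± 0.40 (adjusted p = 0.278). Samhd1, which encodes an enzyme that depletes deoxynucleotides, differed by -0.35 ± 0.24 (0.308). The RNase gene Isg20 differed by 0.08 ± 0.36 (0.900) and Adar, which encodes an RNA-editing deaminase, by -0.16 ± 0.25 (0.68). The sign of Isg20 turned with median scaling (-0.21) and in the deposited values (-0.15), and that of Adar with centred arrays (0.028).

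In the ISG15 pathway, the protease gene Usp18 was lower in cLP Treg and the modifier gene Isg15 did not pass the threshold. Usp18 (ILMN_3131679) had deposited intensities of 203.2, 174.5 and 184.9 in cLP samples 1, 2 and 3, against 1758.5, 1546.4 and 1518.3 in MLN samples 1, 2 and 3. After normalisation these were 6.58, 6.91 and 6.94 in cLP samples, against 10.24, 10.40 and 10.21 in MLN samples, with narrow spreads in both groups. The difference was -3.47 ± 0.22 (11.1-fold lower, adjusted p = 0.000143; all alternatives, 6.33e-05 to 0.00194), and 0.317% of all genes tested had a lower one. A second Usp18 probe (ILMN_3054914) was detected on no array, was not kept and has no test, so the result rests on 1 probe. Its intensities were 116.0, 87.1 and 94.4 in cLP samples, against 126.9, 129.4 and 99.7 in MLN samples. Isg15 had 5.92, 6.28 and 6.40 in cLP samples, against 6.40, 5.57 and 5.75 in MLN samples. The groups overlapped, 1 MLN array did not detect it, and the difference of 0.29 ± 0.29 did not pass (adjusted p = 0.479).

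**Figure D3:**
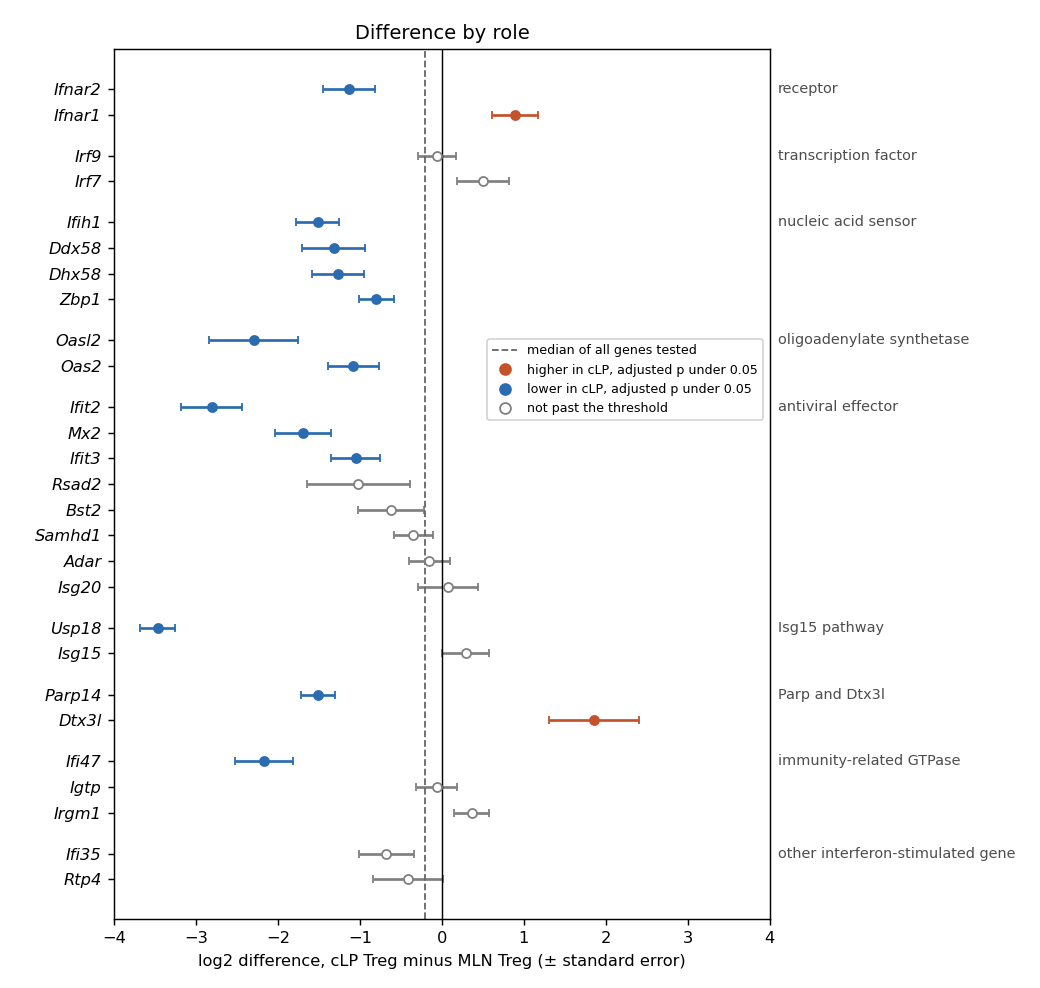
Points are the log2 differences of the 27 tested genes, cLP Treg minus MLN Treg, with bars of 1 standard error, grouped by role, and filled where the adjusted p was under 0.05. The dashed line is the median of all genes (-0.21), and all 4 sensor genes lie to its left as filled points, as does Oas2, which entered the test through the MLN arrays alone, while the receptor genes fall on either side.

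The neighbouring genes of the PARP group gave differences in both directions. Parp14, which encodes an ADP-ribosyltransferase, had 11.43, 11.37 and 11.54 in cLP samples, against 13.03, 12.75 and 13.10 in MLN samples by its brighter probe (ILMN_2825803). The difference was -1.51 ± 0.21 (2.86-fold lower, adjusted p = 0.00215). Its other kept probe (ILMN_2546461) had 9.13, 9.57 and 9.26 in cLP samples, against 7.40, 7.07 and 7.24 in MLN samples, all cLP values above (2.08 ± 0.23, adjusted p = 0.000916 over all probes). The probes of Parp14 thus passed the threshold in opposite directions, and their mean differed by 0.28 (adjusted p = 0.328; all alternatives, 0.000556 to 0.328). Dtx3l, a ubiquitin ligase gene whose protein pairs with PARP9, had 10.98, 10.53 and 9.02 in cLP samples, against 7.92, 7.96 and 9.09 in MLN samples. The groups overlapped through cLP sample 3 and MLN sample 3 (difference 1.85 ± 0.55, 3.61-fold higher, adjusted p = 0.0364). Its second probe differed by 0.60 ± 0.43 (0.336). Dtx3l lost its call without MLN samples 1 and 2 in turn (adjusted p = 0.12 and 0.117), without cLP samples 1 and 2 in turn (0.0915 and 0.0966; all alternatives, 0.00466 to 0.12), with median scaling (0.0611) and in the deposited values (0.068). The Parp9 probe ILMN_2486102 had intensities of 259.5, 532.1 and 97.1 in cLP samples, against 136.4, 129.7 and 100.6 in MLN samples, and was detected on cLP samples 1 and 2 only, which kept it out of the test.

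Of the immunity-related GTPase genes, which act against intracellular parasites and bacteria and also answer interferon gamma, Ifi47 passed the threshold. It had 11.48, 11.95 and 10.61 in cLP samples, against 13.31, 13.51 and 13.73 in MLN samples, with no overlap (difference -2.17 ± 0.36, adjusted p = 0.00404; all alternatives, 0.00175 to 0.0226). Igtp had 13.39, 12.80 and 13.28 in cLP samples, against 12.95, 13.36 and 13.35 in MLN samples. Its groups overlapped (difference -0.06 ± 0.25, adjusted p = 0.875), with a positive sign with centred arrays (0.12). Irgm1 had 14.48, 14.77 and 14.49 in cLP samples, against 14.06, 14.27 and 14.33 in MLN samples by its brightest probe (0.36 ± 0.21, adjusted p = 0.243). All cLP values lay above the MLN values, without passing the threshold. A dimmer Irgm1 probe (ILMN_1234539) had 8.59, 7.64 and 7.15 in cLP samples, against 9.37, 9.69 and 9.97 in MLN samples, and was lower (-1.88 ± 0.39, adjusted p = 0.0104 over all probes).

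Of the remaining 5 genes, Ifi35 differed by -0.68 ± 0.33 (adjusted p = 0.162) and Rtp4, a chaperone gene for receptors, by -0.41 ± 0.42 (0.50). The groups overlapped in both, and the reported Rtp4 probe was detected on 1 cLP array and 2 MLN arrays. Xaf1 was not detected on any array by either of its probes. No probe was named for Ifi44 or Ly6a in the annotation used, so these are not analysed here. Of the 7 genes with a probe but none kept, Ifit1, Mx1, Oas1a, Oas3 and Xaf1 were detected on no array, Oasl1 on 2 MLN arrays, and Parp9 on the cLP arrays named above. For Mx1 the intensities were 118.6, 79.0 and 86.5 in cLP samples, against 129.5, 121.6 and 88.2 in MLN samples.

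Probes of a gene did not always read alike. No array detected 21 of the 66 probes, among them probes of the lower genes Ddx58, Dhx58, Ifit3, Ifnar2, Oasl2, Parp14, Usp18 and Zbp1. Of the 66 probes 41 were kept, of which 18 were lower and 3 higher in cLP Treg at an adjusted p under 0.05 over all 16215 probes kept, where 17.4% of all probes were lower and 14.5% higher. Among 10 genes with several kept probes, all probes had the same sign in 7. The exceptions were Adar, Irgm1 and Parp14. Of the Adar probes, ILMN_2489167 had 6.53, 7.23 and 6.57 in cLP samples, against 8.68, 8.75 and 9.0 in MLN samples (difference -2.04 ± 0.27, adjusted p = 0.00181). A second one (ILMN_3021272) differed by -1.51 ± 0.25 (0.00432), while the brightest probe and the remaining one differed by -0.16 and 0.27 without passing. With the mean of its probes Adar was lower (-0.86, adjusted p = 0.0177; all alternatives, 0.0177 to 0.991), and Irgm1 differed by -0.76 (0.0553).

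**Figure D4:**
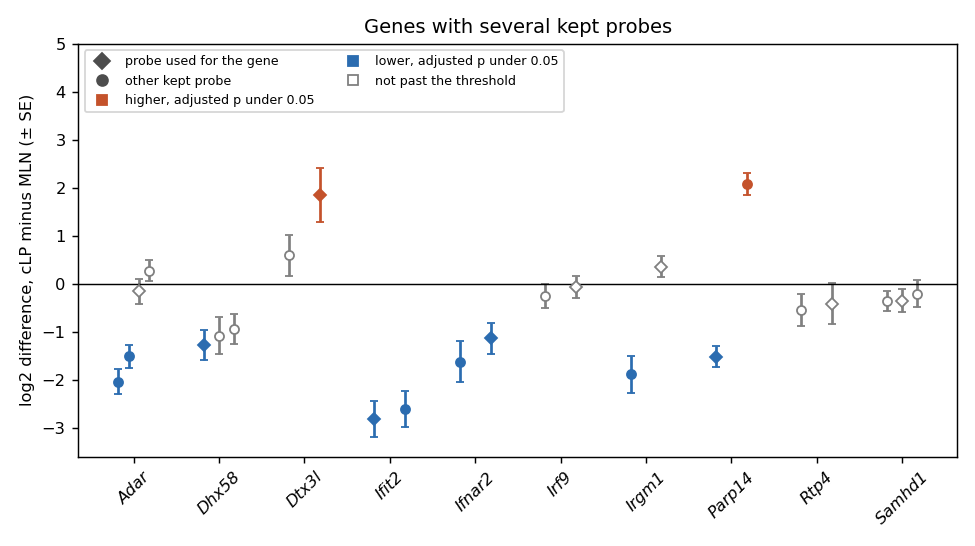
Each symbol is a kept probe of a gene that had several, placed by its log2 difference, cLP Treg minus MLN Treg, with bars of 1 standard error, diamonds for the probe used for the gene and filled symbols for an adjusted p under 0.05. Both Ifit2 probes (-2.81 and -2.61) and both Ifnar2 probes (-1.14 and -1.62) lie below 0, whereas the Parp14 probes lie at -1.51 and 2.08.

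The interferon-stimulated response element can be read in the promoters of several of these genes, whether or not they were lower in cLP Treg. A core of the element, GAAA followed by any pair of bases and a second GAAA, on either strand and with overlapping matches allowed, was searched in windows from 250 bases before to 50 bases after the start of each gene (RefSeq, GRCm38.p6). It was found for 11 of 26 genes with a window (42.3%), against 3.99% of all 27025 genes with a window. Among the lower genes with a window 3 of 7 held it, and among the genes tested and not lower 5 of 13. The lower genes Usp18, Mx2, Dhx58, Zbp1, Parp14 and Oas2 had no window and were not searched. The windows of Ifit3 and Ifih1, which were lower, and of Isg15 and Igtp, which did not pass the threshold, are shown 5′ to 3′ on the strand of the gene, with the matches in capitals (for Ifit3 in the reverse complement).
Ifit3: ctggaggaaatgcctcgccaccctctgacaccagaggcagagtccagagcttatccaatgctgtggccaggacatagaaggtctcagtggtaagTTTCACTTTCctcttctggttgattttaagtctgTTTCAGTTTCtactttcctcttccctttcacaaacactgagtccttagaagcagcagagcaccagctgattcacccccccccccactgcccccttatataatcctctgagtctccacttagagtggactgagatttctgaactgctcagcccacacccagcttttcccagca
Ifih1: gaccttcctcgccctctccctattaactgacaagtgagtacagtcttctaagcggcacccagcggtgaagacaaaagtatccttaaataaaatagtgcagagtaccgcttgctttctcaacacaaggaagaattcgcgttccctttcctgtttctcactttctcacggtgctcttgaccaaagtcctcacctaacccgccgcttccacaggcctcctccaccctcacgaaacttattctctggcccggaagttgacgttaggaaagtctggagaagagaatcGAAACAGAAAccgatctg
Isg15: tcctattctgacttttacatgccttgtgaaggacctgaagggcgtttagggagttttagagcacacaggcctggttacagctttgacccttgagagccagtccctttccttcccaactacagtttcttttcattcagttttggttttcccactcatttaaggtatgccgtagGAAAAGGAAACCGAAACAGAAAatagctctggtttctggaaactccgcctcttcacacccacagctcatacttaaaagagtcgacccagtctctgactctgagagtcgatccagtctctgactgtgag
Igtp: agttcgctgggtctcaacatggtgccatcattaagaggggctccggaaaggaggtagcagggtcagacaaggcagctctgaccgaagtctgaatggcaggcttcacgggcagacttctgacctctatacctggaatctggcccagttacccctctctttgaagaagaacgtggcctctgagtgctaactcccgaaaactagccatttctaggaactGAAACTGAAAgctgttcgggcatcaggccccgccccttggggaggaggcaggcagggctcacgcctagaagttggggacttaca
These windows are chr19:34583279-34583578 on the + strand, chr2:62646206-62646505 on the - strand, chr4:156200769-156201068 on the - strand and chr11:58199306-58199605 on the + strand. Isg15 held 3 overlapping matches, at bases 173 to 182, 179 to 188 and 185 to 194 of its window, Ifit3 held 2, at bases 95 to 104 and 129 to 138, and Igtp and Ifih1 held 1 each, at bases 217 to 226 and 283 to 292. Both Ifit2 windows, and those of Ifi47 and Oasl2, held no match to these letters.

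Outside the 36 genes, 91 other genes of the interferon pathway were listed, also with earlier results of these data known. On the array were 84, and 67 were tested. Of these 26 were lower and 8 higher in cLP Treg (38.8% and 11.9%, against 20.3% and 12.1% of all genes), with a median difference of -0.66. Tlr7, Tgtp1 and Oas1b among the lower genes and Ifitm3 among the higher ones were detected in 1 group alone and so had to differ to be tested. The count of lower genes was 16 without MLN sample 2, and that of higher genes was 4 without MLN sample 1 and 5 without MLN sample 3 or cLP sample 3. Of all 9157 genes, 1108 were lower without MLN sample 2, against 1861 as reported. Without MLN sample 1, MLN sample 3 and cLP sample 3 in turn, 740, 833 and 1176 were higher, against 1107 as reported. Among 41 further interferon-stimulated genes 19 were lower and 2 higher, and among 13 signalling genes 3 were lower and 3 higher. Among 10 genes of interferon ligands and their induction 3 were lower and 1 higher.

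The signal transducers that were named did not pass the threshold: Jak1 differed by 0.16 ± 0.29 (adjusted p = 0.714), Tyk2 by -0.50 ± 0.40 (0.381) and Stat2 by 0.06 ± 0.24 (0.883). Irf1, a transcription factor gene induced by interferons, differed by -0.17 ± 0.21 (0.585). The largest decrease was in Tlr7, which encodes an endosomal sensor of single-stranded RNA, with 5.08, 4.79 and 4.81 in cLP samples, against 8.82, 9.36 and 8.90 in MLN samples. It was detected on no cLP array and was at least 11.4-fold lower, and since it entered the test through the MLN arrays alone, its adjusted p is not given as support. Sting1, the adaptor of cytosolic DNA sensing, had 6.77, 9.04 and 7.44 in cLP samples, against 10.78, 10.79 and 10.88 in MLN samples (difference -3.07 ± 0.53, adjusted p = 0.00478). Its cLP values were spread, with cLP sample 2 nearest to the MLN values. Ifit1bl1, a relative of Ifit1, differed by -2.96 ± 0.33 and was detected on 1 cLP array. Trim21, an antibody receptor and ubiquitin ligase gene, differed by -2.93 ± 0.21, and Slfn1, a gene of the Schlafen family, by -2.79 ± 0.25. Adjusted p-values of these 3 ran from 0.000194 to 0.00089.

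The increases included both chains of the interferon gamma receptor. Ifngr1 had 12.60, 13.08 and 12.68 in cLP samples, against 10.41, 10.34 and 10.40 in MLN samples (difference 2.41 ± 0.22, 5.30-fold higher, adjusted p = 0.000447). Ifngr2 had 14.50, 14.63 and 14.15 in cLP samples, against 12.29, 12.74 and 12.53 in MLN samples (difference 1.90 ± 0.24, 3.74-fold higher, adjusted p = 0.00147). The groups did not overlap in either gene. Ifng, which encodes interferon gamma, had 8.80, 7.74 and 10.13 in cLP samples, against 6.58, 7.86 and 5.74 in MLN samples. Its groups overlapped and its difference of 2.17 ± 0.70 passed narrowly (adjusted p = 0.0495). Ptpn2, a phosphatase gene that damps JAK and STAT signalling, was higher by 3.95 ± 0.59 (0.00282; SD of the MLN samples 1.26), and Stat3 by 3.90 ± 0.28 (0.000194). The other 3 that were higher, named after their values were seen, were Irf5 (1.07 ± 0.29), Ifitm1 (0.85 ± 0.24) and Ifitm3, which was detected on no MLN array, was at least 1.45-fold higher and entered the test through the cLP arrays alone. The stromal markers Acta2, Col3a1 and Sparc, detected on cLP arrays alone, were higher in the same samples. The part of stromal cells in these values was not tested.

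Samples of a group did not hold these genes at the same level. Over the 27 genes, the median deviation from each gene's mean over all arrays was -0.30, -0.40 and -0.49 in cLP samples 1, 2 and 3, against 0.43, 0.59 and 0.04 in MLN samples 1, 2 and 3. Over all genes it was -0.14, -0.10 and -0.04 in cLP samples, against 0.13, 0.13 and 0.08 in MLN samples. The lowest value of a gene was in cLP sample 3 for 10 of the 27 genes, and the highest was in MLN sample 2 for 10. MLN sample 3 stood nearest to the cLP samples in this median. Without it the count of lower genes was 8 (1166 of all 9157 genes) and the median difference -0.95.

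**Figure D5:**
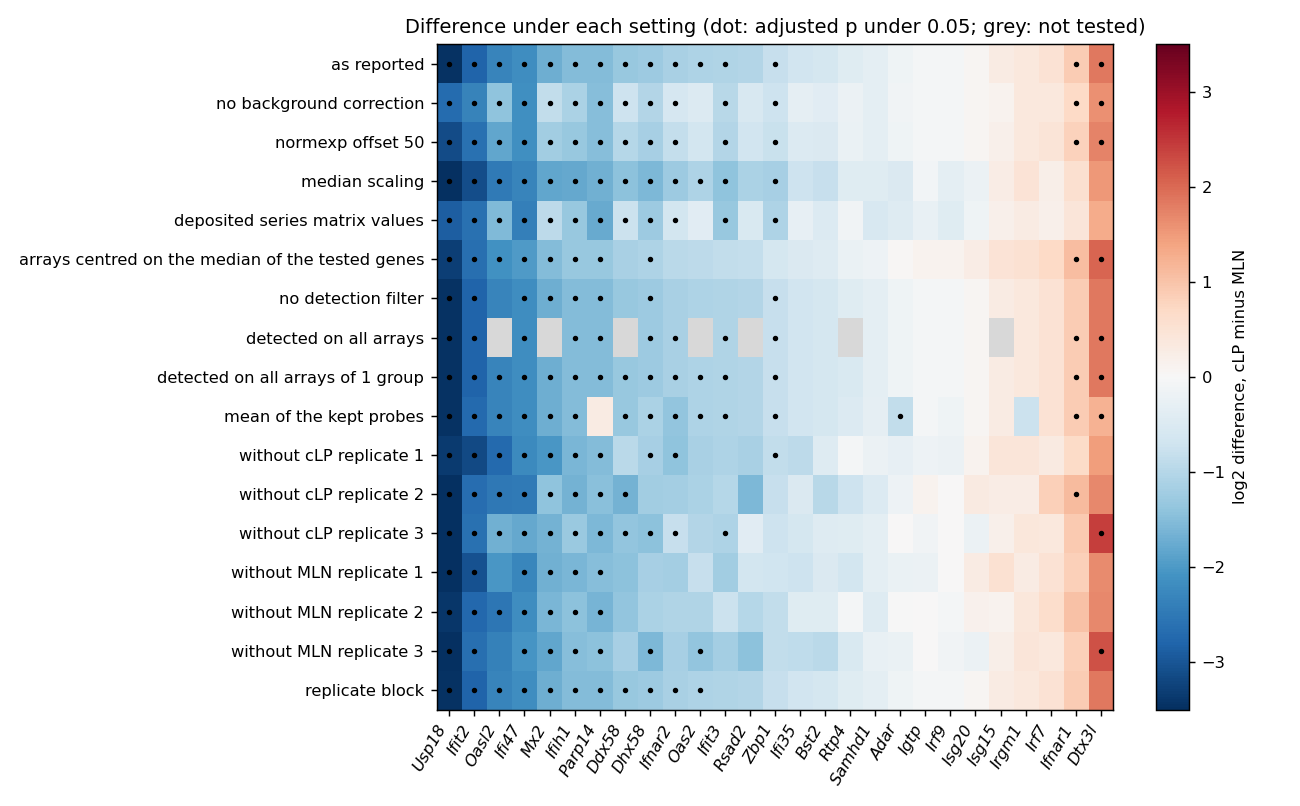
Colours give the log2 difference, cLP Treg minus MLN Treg, of each tested gene (columns, ordered by the reported difference) as reported and under each alternative (lines of the grid), with a dot where the adjusted p was under 0.05 and grey where the gene was not tested. Usp18, Ifit2, Ifi47, Ifih1 and Mx2 have a dot wherever they were tested, and Ifnar1, Zbp1 and Oas2 lose theirs under many of the alternatives.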

How the data were processed

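Members and lists were chosen with earlier results of these data known. Groups came from the source label of each sample. The authors deposited linear probe intensity values, and the submitters' processing notes name GenomeStudio 1.6.0 as software. A detection column per array, read from its rise with the signal (rank correlation at least 0.991), holds a deposited fraction that is highest for bright probes, so the detection p was taken as 1 minus it. The deposited series matrix holds log2 values scaled to each array's 75th percentile, not centred by gene. All 45281 probes matched between both tables within 0.1 in signal. The column medians of the deposited matrix were -0.596, -0.689 and -0.661 for cLP samples 1 to 3 and -0.728, -0.607 and -0.848 for MLN samples 1 to 3. No array column was left unmapped (0). Symbols came from the platform annotation: 34885 probes had 1, 18 several and 10378 none, and 0 needed an update in the gene table used.

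Probes were corrected for background by normexp in limma 3.58.1 under R 4.3.3 (control moments inferred from the detection p, offset 16) and arrays were quantile normalised. Probes with a detection p under 0.05 on at least 3 of 6 arrays were kept (16215), and each gene was represented by its probe of highest mean over all arrays (9157 genes; lmFit and eBayes without a block, Benjamini-Hochberg, threshold 0.05). The fitting code was run on simulated data with independent noise, which is no check of the calls in these samples. A fold given as "at least" compares the mean of the brighter group with the mean over dim arrays of the higher of the dimmer probe's value and the lowest detected signal. Every gene of the list is accounted for. Values per sample are given for the receptor genes, Irf7, Irf9, Isg15 and genes past the threshold, with a few others, and other pathway genes by a fixed list and the 5 largest changes in each direction. No source used here gives a chip or scan, and no batch term entered. Alternatives covered background, scaling, filter, probe choice, the replicate number as a block and leaving out each sample with genes, probes and normalisation kept.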

Additional observations from a re-analysis of the deposited data

How the results depend on the processing

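Over 16 alternatives the median difference of the interferon response genes stayed negative, but its size moved: -0.80 as reported, -1.08 with median scaling, -0.62 with centred arrays, -0.53 in the deposited values, -0.52 without a detection filter, -0.48 without background correction and -0.98 to -0.61 without single samples. The median of all genes was -0.21 as reported, -0.40 with median scaling, -0.03 with centred arrays, -0.30 in the deposited values, -0.03 without a detection filter and -0.13 without background correction. The 13 lower genes became 8 with centred arrays and 8 without a detection filter, where 19057 genes were tested, and 6 to 11 without single samples. Of all genes tested, 1861 were lower as reported, 1403 with centred arrays, 1485 without a detection filter and 1026 to 2044 without single samples. The 2 higher genes became 0 with median scaling, in the deposited values, without a detection filter and with the replicate block, and 0 to 1 without single samples. Of all genes tested, 1107 were higher as reported, 882, 881, 932 and 931 in these 4 settings and 740 to 1176 without single samples. Other pathway genes called higher (8) became 5 without background correction, 5 with median scaling, 4 in the deposited values, 5 with detection on all arrays, 5 with the replicate block and 4 to 7 without single samples, and those called lower (26) became 16 to 28 without single samples. Genes past the threshold (2968) became 1766 to 3220 without single samples, the lowest counts without an MLN sample (1766, 1898 and 1999), and higher genes made up 882 of 3346 calls with median scaling, 881 of 3652 in the deposited values and 1331 of 2734 with centred arrays. The cause of these changes was not tested.

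Signs turned for genes near 0: Isg20 with median scaling (-0.21) and in the deposited values (-0.15), and Adar (0.028), Igtp (0.12) and Irf9 (0.12) with centred arrays. Irgm1 (-0.76) and Parp14 (0.28) turned with the mean of their kept probes, which differ in sign. Without single samples Isg20 ran from -0.22 to 0.31, Adar from -0.28 to 0.0051, Igtp from -0.20 to 0.11 and Irf9 from -0.22 to 0.020. Samples with the same number did not deviate together (r = -0.16, -0.10 and -0.01 across genes for numbers 1, 2 and 3). Pairs with unlike numbers ran from -0.13 (cLP sample 3 and MLN sample 2) to 0.23 (cLP sample 1 and MLN sample 2). With 3 samples per group these values cannot settle whether samples of the 2 groups share an origin, and the labels do not say. With the replicate block 2440 genes passed, of which 1509 were lower, and 11 of the listed genes and 21 other pathway genes were lower. Dim probes limit what can be said of Oas2, Rtp4, Isg15 and the genes not detected.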
